A study of Saccharomyces cerevisiae with 91 samples.

Results

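The mitochondrial ribosomal protein genes of Saccharomyces cerevisiae are described here by the position of the nucleosomes that flank their promoters and by the sequence around those nucleosomes. The genes were taken by name, as the rows called MRPL, MRPS, MRP or RSM followed by a number in a table of nucleosome dyads, and 55 of its 4536 open reading frame (ORF) rows were found (4963 rows in all, with non-coding transcripts). They are called mitoribosomal genes below, and the remaining 4481 ORF rows are called other ORFs. The S. cerevisiae reference has 67 genes with such a name, and the other 12 were not analysed here for their nucleosomes.

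The study rebuilt chromatin on a yeast genomic plasmid library, let the INO80 remodeler move the nucleosomes and mapped them with micrococcal nuclease (MNase-seq), with and without barrier proteins such as Reb1. The positions used here come from its 1 library from living cells, the wild-type strain BY4741 grown to log phase in YPD (rich glucose medium), and not from the reconstitutions. With 1 library there were no replicates, so genes, not samples, supply the spread given below, and no test was made. All intervals are 95% intervals over genes, from order statistics for a median and by Wilson's method for a share, and do not cover library-to-library error. The sequencing depth of the library is unknown from the table, which holds called positions only.

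The mitochondrial ribosome makes the few, mostly membrane-embedded, respiratory proteins that mitochondrial DNA encodes. Nearly all of its proteins are encoded in the nucleus, translated on cytosolic ribosomes and imported. They fall into a large and a small subunit, and each has relatives in all ribosomes (universal), in bacterial ribosomes, or in mitochondrial ribosomes alone. By the systematic names in RefSeq, 32 of the 55 belong to the large and 21 to the small subunit, and 21 are universal, 12 bacterial and 20 mitochondrial. RSM22, annotated as a tRNA methyltransferase, and MRP8 carry no systematic ribosomal protein name.

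In a yeast promoter, a nucleosome-depleted region (NDR) lies between the −1 nucleosome upstream and the +1 nucleosome that covers the transcription start site (TSS) or lies just downstream of it. A dyad is the midpoint of a nucleosome, so the NDR length below, measured from dyad to dyad, includes 73 bp of nucleosomal DNA at each end. General regulatory factors such as Reb1 and Abf1 bind in NDRs and act as barriers against which nucleosomes are aligned. After transcription, Puf3, an RNA-binding protein of the Pumilio family, binds the 3′ untranslated regions of many messenger RNAs for mitochondrial proteins and recognises the element TGTANATA.

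Of the 6 motifs searched here, that 3′ element was found in the most mitoribosomal genes, and examples follow with the element in capitals. All are on the coding strand of the SacCer3 build (RefSeq R64) and start within 300 bases after the stop codon. They were chosen, after all were seen, to show the variants at the fifth base of the element in both subunits. All but the last also have a cytosine at both bases directly before the element, which most elements of these genes do not.

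RSM28 (mS46), chrIV:1438037-1438064, plus strand: cttacataccTGTAAATAtctagtacgt
MRPL4 (uL29m), chrXII:1015468-1015495, plus strand: ccctctctccTGTAAATAtatatatata
MRP7 (bL27m), chrXIV:621244-621271, minus strand: taagaatgccTGTAAATAttactatttt
MRP13 (mS44), chrVII:647065-647092, minus strand: taaacataccTGTAAATActaaaaagta
MRPL13 (mL50), chrXI:450359-450386, minus strand: tttaatatccTGTACATAtatatactct
RSM7 (uS7m), chrX:638193-638220, minus strand: taaacttgccTGTACATAaacacattta
RSM24 (mS35), chrIV:813143-813170, minus strand: acggccccccTGTATATAttatgtattt
MRPL40 (uL24m), chrXVI:224134-224161, plus strand: atattcgaccTGTATATAtgaaagcata
MRPL3 (mL44), chrXIII:323055-323082, plus strand: tttgccatttTGTAGATAgagaactcct

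Of the 55 mitoribosomal genes, 53 had at least 1 such element (96.4%, interval 87.7% to 99%), against 741 of 4356 other ORFs with an annotated stop codon (17%). The 2 without it were RSM22 and MRP8, the same 2 genes that have no systematic ribosomal protein name, so all 53 genes named as ribosomal proteins carried it. It was present in all 32 large subunit and all 21 small subunit genes. The 12 mitoribosomal genes without a row in the dyad table, looked up in the reference after this was seen, also all had it.

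Among other gene lists, the element was found in 9 of 9 mitochondrial ribosomal protein genes known by other names, such as IMG1 and PET123. It was found in 24 of 30 other genes of mitochondrial translation and gene expression (80%, interval 62.7% to 90.5%), which include elongation factors and aminoacyl-tRNA synthetases. The share was 26.9% (13.7% to 46.1%) in 26 genes for subunits of the respiratory chain and ATP synthase, and 8.73% (4.94% to 15%) in 126 cytosolic ribosomal protein genes. The mitoribosomal interval lies above those of the last 2 lists and above the share in other ORFs, and it overlaps that of the other mitochondrial translation genes.

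The 53 genes held 64 elements, 1 in 42 genes and 2 in 11 genes. They started a median of 54.5 bases after the stop codon, with quartiles of 36 and 82.2 bases and a range of 8 to 238 bases. The 806 elements of other ORFs started at a median of 71.5 bases, with quartiles of 36 and 143 bases. Of the 64 elements, 57 lay inside the annotated transcript, and MRPL16, MRPL6, MRPL10 and MRP51 had theirs past its end. Inside the transcript, the share of genes with an element was 89.1%, against 11.8% of other ORFs.

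The letters of the element differed too. The fifth base was A in 30 mitoribosomal elements (46.9%), T in 17 (26.6%), C in 16 (25%) and G in 1 (the first MRPL3 element printed above), against 25.8% A, 51.1% T, 15.8% C and 7.32% G in other ORFs. A cytosine stood 2 bases before the element in 43 of 64 mitoribosomal elements (67.2%, interval 55% to 77.4%), against 188 of 799 in other ORFs (23.5%, interval 20.7% to 26.6%). A cytosine at this place is known from yeast Puf3 to fit a pocket of the protein. In the lines above, chosen after all were seen, it is in every element but that of MRPL3. The printed elements thus hold it more often than the 64 elements do. They also hold a cytosine directly before the element more often, so the letters before the printed elements are not a consensus. On the strand opposite to the transcript the element was found after 23.6% of mitoribosomal genes, against 16.7% of other ORFs, and before the start codon on the coding strand in 10.9% against 8.15%.

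**Figure D1:**
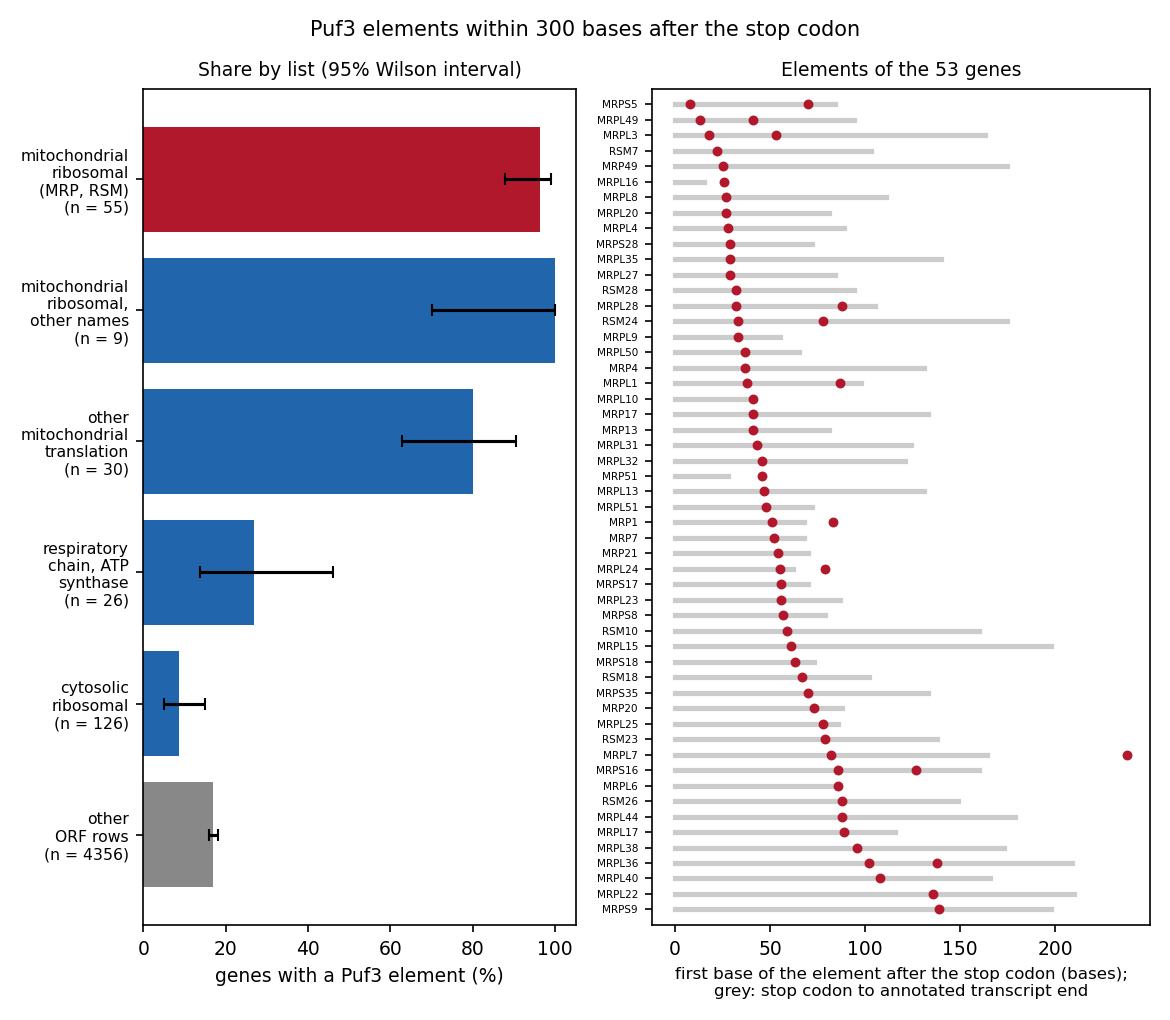
Left, the share of genes with a Puf3 element within 300 bases after the stop codon (x axis, percent; bars, 95% Wilson interval) in each gene list; right, the position of each element (red points, bases after the stop codon) in the 53 mitoribosomal genes that have one, with the stop codon to transcript end in grey. The top bar stands at 96.4% and the other ORF rows at 17%, and the points sit mostly within the first 100 bases.

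The nucleosomes flanking the same genes were placed, at the median, where those of other ORFs were, with a narrower spread. NDR length had a median of 272.5 bp (259 to 280) in 54 mitoribosomal genes, against 265 bp (263 to 267) in 4431 other ORFs. The mitoribosomal interval includes the median of the other ORFs. The quartiles were 248.5 and 284 bp in mitoribosomal genes, a distance of 35.5 bp, against 227 and 298 bp in other ORFs, a distance of 71 bp.

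By count, 40 of 54 mitoribosomal NDRs were 200 to 300 bp long (74.1%, interval 61.1% to 83.9%), against 58.8% of other ORFs. Both tails were thinner, with 10 of 54 longer than 300 bp (18.5%, interval 10.4% to 30.8%) against 24.2%, and 4 of 54 shorter than 200 bp (7.41%, interval 2.92% to 17.6%) against 17%. The interval of the middle range lies above the share in other ORFs, and those of the long and short classes include it. A split of the middle range by promoter orientation is given further below. These ranges were set after the values were seen. The table also holds a second set of +1 dyads, whose origin is not given in the sources used here, and with it 77.8% of mitoribosomal NDRs and 58.6% of other ORFs fell in the same range.

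The +1 dyad lay a median of 55 bp (49 to 59) downstream of the TSS in 55 mitoribosomal genes, against 54 bp (53 to 55) in other ORFs. The quartiles were 44 and 63 bp in mitoribosomal genes against 40 and 72 bp in other ORFs. In 51 of 55 mitoribosomal genes the +1 dyad was 30 to 90 bp from the TSS (92.7%, interval 82.7% to 97.1%), against 70.1% of other ORFs. With the second set of +1 dyads the shares were 87.3% and 68.1%. The 9 mitochondrial ribosomal protein genes of other names had 100% (70.1% to 100%), and the other mitochondrial translation genes 80% (62.7% to 90.5%). The respiratory chain and ATP synthase genes had 84.6% (66.5% to 93.8%). These intervals overlap the mitoribosomal one, and that of the cytosolic ribosomal protein genes (73.8%, 65.5% to 80.7%) does not. The +1 dyad was over 100 bp away in 1 mitoribosomal gene (1.82%, interval 0.322% to 9.61%), against 14.2% of other ORFs. Shares in the other lists ran from 0% to 8.73%, with intervals that overlap the mitoribosomal one. The −1 dyad lay a median of 211 bp (200 to 226) upstream of the TSS in mitoribosomal genes and 210.5 bp (208 to 213) in other ORFs. It was 150 to 300 bp upstream in 45 of 54 mitoribosomal genes (83.3%, interval 71.3% to 91%), against 66.6% of other ORFs. This share was 88.9% (56.5% to 98%) in the genes of other names and 66.7% (48.8% to 80.8%) in the other mitochondrial translation genes. In respiratory chain and ATP synthase genes it was 57.7% (38.9% to 74.5%). These intervals overlap the mitoribosomal one, and that of cytosolic ribosomal protein genes (25.4%, 18.6% to 33.6%) does not. The distance ranges were not part of the planned measures.

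Mitoribosomal transcripts are short, with a median of 897 bases from TSS to transcript end against 1609 bases in other ORFs. Among the 3289 other ORFs with transcripts in the same range of lengths (521 to 2281 bases), 58.4% of NDRs were 200 to 300 bp long and 70.8% of +1 dyads lay 30 to 90 bp from the TSS. Both shares were within a percentage point of those of all other ORFs. The transcripts of these 3289 ORFs were still longer, with a median of 1329 bases and quartiles of 985 and 1729 bases. The mitoribosomal quartiles were 649 and 1109 bases. Lengths were therefore not matched, and a part of transcript length in the narrower spread was not tested.

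**Figure D2:**
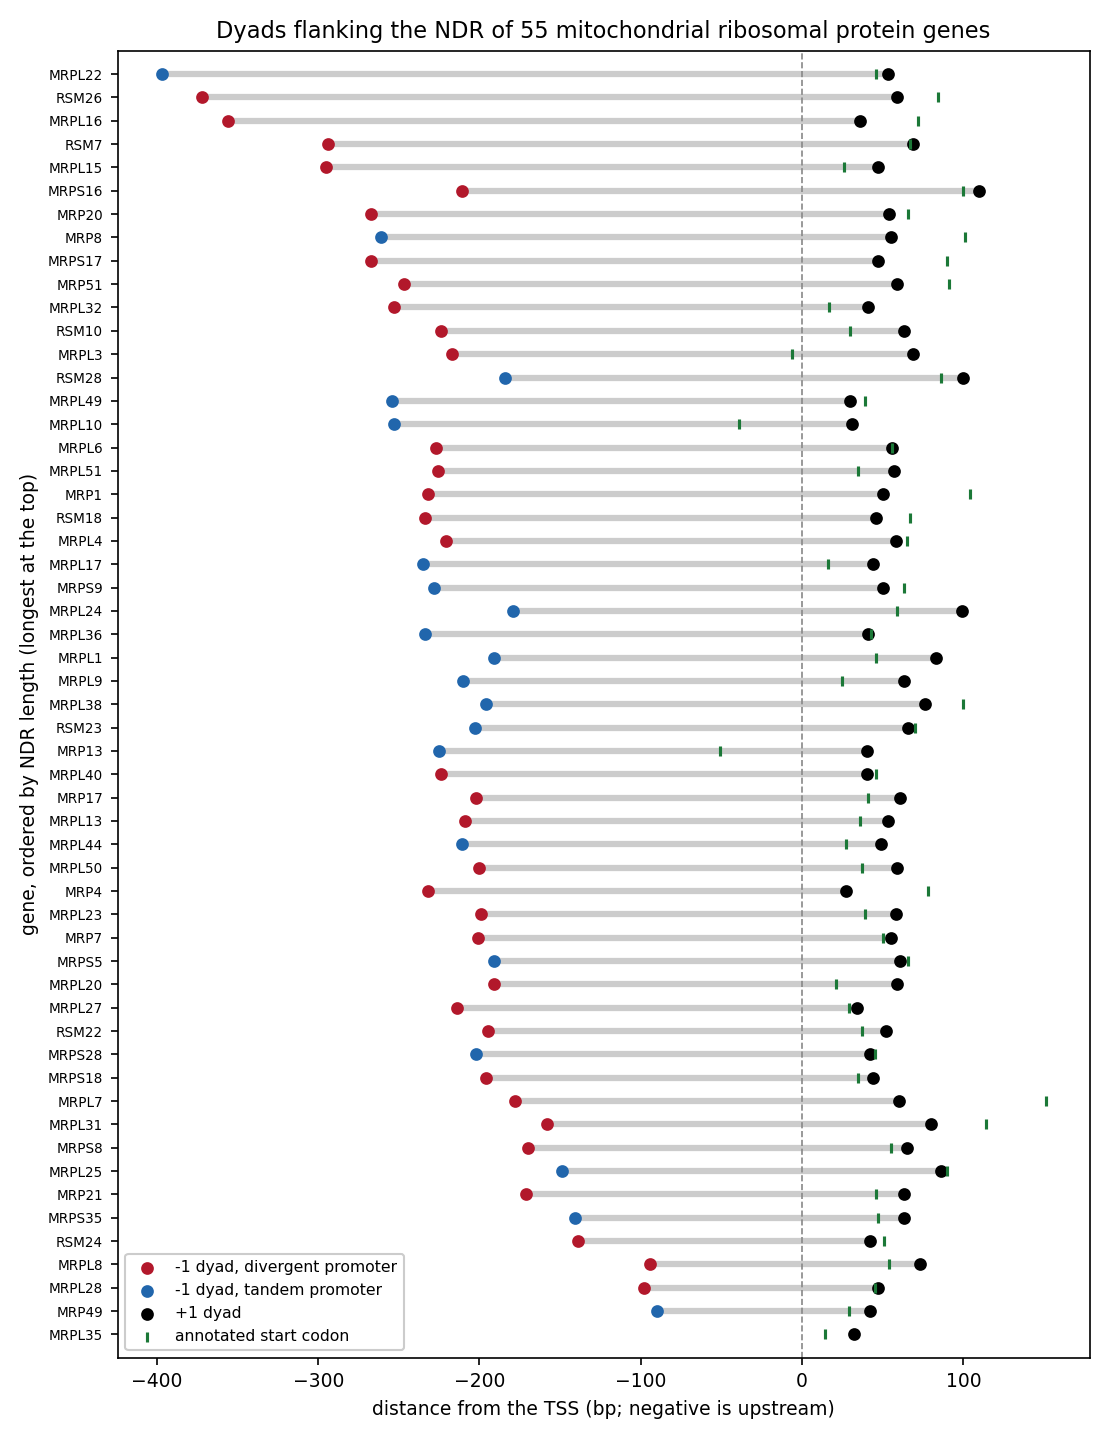
The −1 dyad (red, divergent promoter; blue, tandem promoter), the +1 dyad (black) and the annotated start codon (green) of each mitoribosomal gene, in bp from the TSS on the x axis, with genes ordered by NDR length. Most −1 dyads lie 150 to 300 bp upstream and most +1 dyads 30 to 90 bp downstream; MRPL35 has no −1 dyad.

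The longest NDR was that of MRPL22, whose protein uL22m lines the exit tunnel of the large subunit. It measured 450 bp (chrXIV:304608-305058, minus strand), with the −1 dyad 397 bp upstream and the +1 dyad 53 bp downstream of the TSS. RSM26, which encodes the superoxide dismutase-like mS42, had an NDR of 431 bp (chrX:617778-618209, plus strand). MRPL16 (uL16m) followed with 392 bp (chrII:145759-146151), RSM7 (uS7m) with 363 bp (chrX:638973-639336) and MRPL15 (mL57, an RNase III-like protein) with 342 bp (chrXII:759159-759501). In all 5 the +1 dyad stood 36 to 69 bp from the TSS, within the range of the other genes, and the −1 dyad lay 294 to 397 bp upstream.

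The shortest NDR was that of MRP49 (mL61), with 132 bp (chrXI:134121-134253, minus strand). Its −1 dyad lay 90 bp upstream of the TSS. MRPL28 (mL40) had 145 bp, MRPL8 (bL17m) 167 bp, RSM24 (mS35) 181 bp and MRPS35 (mS45) 204 bp. In these 5 genes too the +1 dyad stood 42 to 73 bp from the TSS. Dyads were called with a minimum distance of 120 bp, and 120 other ORFs (2.71%) sat at exactly that NDR length, against no mitoribosomal gene (0 of 54, upper bound 6.64%). MRPL35 (mL38) had a +1 dyad 32 bp from the TSS and no NDR length, because no −1 dyad was given. No mitoribosomal gene had an NDR length of 0, against 9 other ORFs.

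The +1 dyad was farthest from the TSS in MRPS16 (bS16m, 110 bp), RSM28 (mS46, 100 bp), MRPL24 (bL28m, 99 bp) and MRPL25 (mL59, 86 bp). In the second column of +1 dyads the same genes had 89, 87, 64 and 66 bp, so MRPS16 and RSM28 were the farthest in both columns and MRPL24 and MRPL25 were not among the first 4 in the second. For MRPL25 the table marks only the 3′ end of the transcript as mapped. It was nearest in MRP4 (uS2m, 27 bp), MRPL49 (bL21m, 30 bp), MRPL10 (uL15m, 31 bp) and MRPL35 (32 bp), with 30, 20, 32 and 26 bp in the second column. The 2 columns differed by a median of 11 bp and at most 35 bp over the 55 genes.

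The leaders of these transcripts were short, and the start codon lay close to the +1 dyad. The TSS lay a median of 46 bases (39 to 63) before the start codon in mitoribosomal genes, against 69 bases (67 to 71) in other ORFs and 63 bases (60 to 65) in those of the same range of transcript lengths, which the mitoribosomal interval reaches. The +1 dyad lay 7 bp past the start codon at the median (−4 to 17), against 7 bp before it in other ORFs (median −7, interval −9 to −6) and 1 bp before it in those of the same range of transcript lengths (median −1, interval −3 to 0). It was at or past the start codon in 33 of 55 mitoribosomal genes (60%, interval 46.8% to 71.9%), against 43.8% of other ORFs. In other ORFs of the same range of transcript lengths the share was 49.5%, which lies inside the interval. The start codon lay within 73 bp of the +1 dyad, that is inside the DNA of the +1 nucleosome, in 52 of 55 mitoribosomal genes (94.5%, interval 85.1% to 98.1%). The share was 72.1% in other ORFs and 76.8% in those of the same range of transcript lengths, both below the interval. The other lists had shares of 100% (70.1% to 100%) for the 9 genes of other names, 83.3% (66.4% to 92.7%) for the other mitochondrial translation genes, 76.9% (57.9% to 89%) for the respiratory chain and ATP synthase genes and 84.9% (77.6% to 90.1%) for the cytosolic ribosomal protein genes, and all 4 intervals overlap the mitoribosomal one. The leader of the other mitochondrial translation genes was also short, with a median of 43.5 bases (33 to 57). The mitoribosomal exceptions were MRPL7 (uL5m), with the dyad 91 bp before the start codon, and MRP13 (mS44) and MRPL3 (mL44), with the dyad 91 and 75 bp past it.

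MRP13 and MRPL3 are also 2 of the 3 genes, with MRPL10, whose TSS in the table lies downstream of the annotated start codon, by 51, 6 and 39 bases (3 of 55, 5.45%, interval 1.87% to 14.9%, against 2.71% of other ORFs). A transcript from such a site would begin past the annotated start codon, so the values relative to the TSS are less certain for these 3 genes.

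The large subunit genes had a median NDR of 273 bp (257 to 283) and a +1 dyad 54.5 bp (44 to 59) from the TSS, and the small subunit genes 269 bp (244 to 287) and 59 bp (46 to 63). The leader was 41 bases (29 to 54) in large subunit genes and 66 bases (46 to 84) in small subunit genes, and the +1 dyad lay 15 bp past (−2 to 22) and 3 bp before (−21 to 14) the start codon. These intervals overlap. By origin, the median NDR was 274 bp (257 to 287) in universal, 276.5 bp (256 to 294) in bacterial and 262 bp (235 to 283) in mitochondrial members, again with overlapping intervals. An NDR shorter than 200 bp was found in 0% (0% to 15.5%) of the 21 universal genes, against 17% of other ORFs. The share was 8.33% (1.49% to 35.4%) in bacterial and 15.8% (5.52% to 37.6%) in mitochondrial members, whose intervals include that of other ORFs. The intervals of the 3 origins overlap.

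Set beside the other lists, the 9 mitochondrial ribosomal protein genes of other names had close values, with a median NDR of 270 bp (236 to 279) and a +1 dyad 50 bp (47 to 53) from the TSS. The other mitochondrial translation genes had 247.5 bp (212 to 277) and quartiles of 200.75 and 279.5 bp, and the respiratory chain and ATP synthase genes 274 bp with quartiles of 193.25 and 307.75 bp. The cytosolic ribosomal protein genes, whose products build the other ribosome of the cell, had 241 bp (207 to 309), with quartiles of 171.5 and 368 bp. An NDR of 200 to 300 bp, found in 74.1% of mitoribosomal genes, was found in 8 of the 9 genes of other names (88.9%, interval 56.5% to 98%) and in 53.3% (36.1% to 69.8%) of the other mitochondrial translation genes, whose intervals overlap the mitoribosomal one. The share was 38.5% (22.4% to 57.5%) in respiratory chain and ATP synthase genes and 20.6% (14.5% to 28.5%) in cytosolic ribosomal protein genes, whose intervals do not overlap it.

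**Figure D3:**
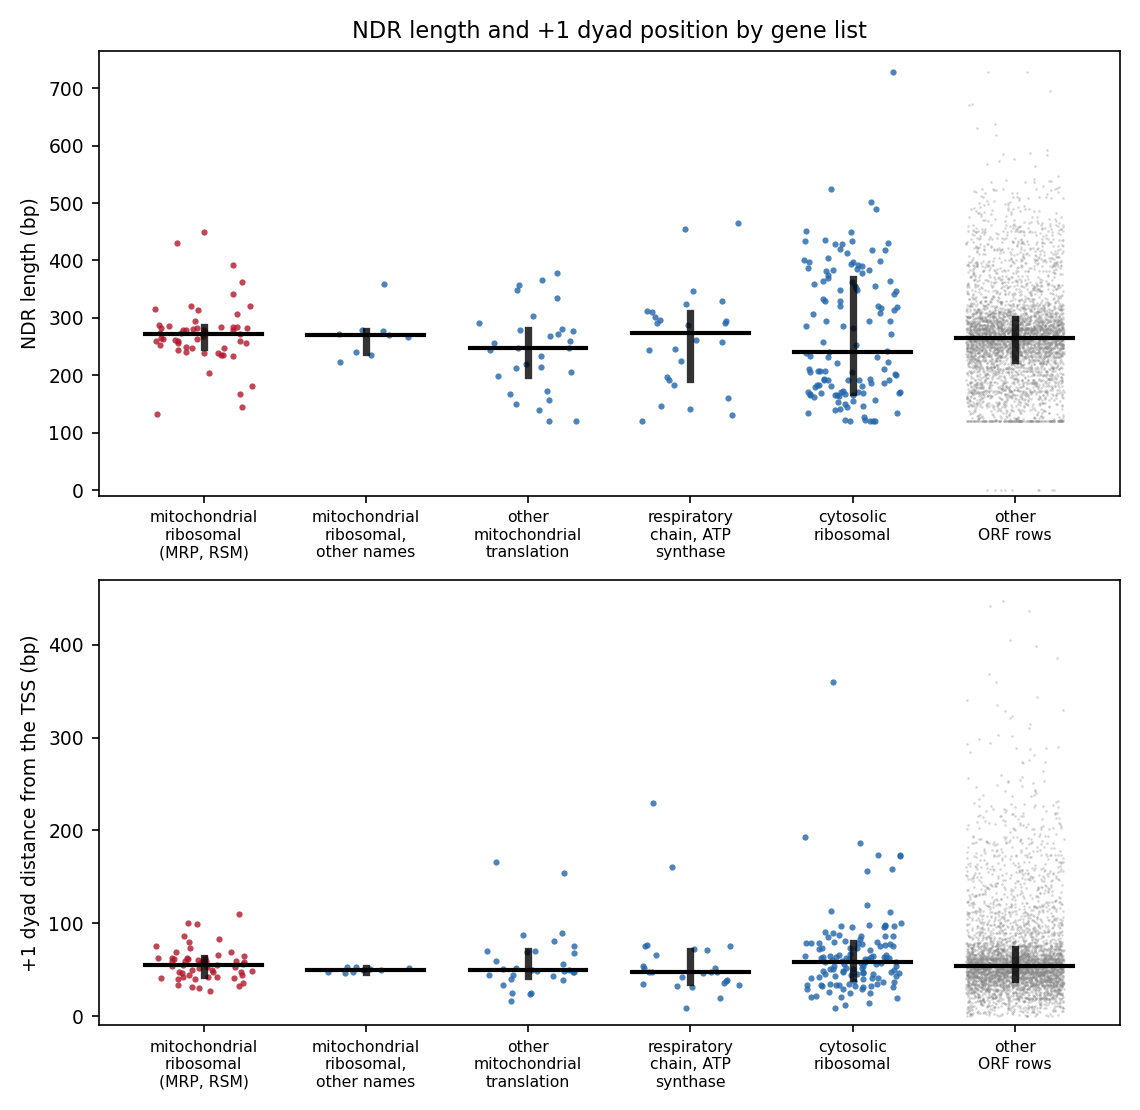
NDR length (top) and +1 dyad distance from the TSS (bottom), in bp, for each gene (points) of the mitoribosomal genes, 4 other lists and all other ORF rows, which include those 4 lists; horizontal bars are medians and vertical bars span the quartiles. The mitoribosomal NDRs crowd between 200 and 300 bp around a median of 272.5 bp, and the cytosolic ribosomal ones spread from 120 to 728 bp.

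A promoter is divergent where the next annotated gene upstream is on the other strand and tandem where it is on the same strand. In 34 of 55 mitoribosomal genes the promoter was divergent (61.8%, interval 48.6% to 73.5%), against 52.6% of other ORFs, a share inside that interval. The start codon was a median of 341 bp (271 to 442) from the upstream gene, against 442 bp (431 to 453) in other ORFs, a value at the edge of the mitoribosomal interval. NDR length had a median of 263.5 bp in divergent and 273.5 bp in tandem mitoribosomal genes, against 262 and 268 bp in divergent and tandem other ORFs. The middle range counted above held 67.6% (50.8% to 80.9%) of divergent mitoribosomal NDRs, against 60.5% in other ORFs, a share inside the interval. It held 85% (64% to 94.8%) of tandem ones, against 57.3%, a share below the interval. The mitoribosomal intervals overlap. An excess was thus shown in tandem promoters only. The quartiles were 45 and 22.25 bp apart in divergent and tandem mitoribosomal genes, against 68 and 73 bp.

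No 2 mitoribosomal genes shared a promoter, and no divergent partner belonged to the other gene lists. MRP13 lies in tandem downstream of RPL11B, a cytosolic ribosomal protein gene. In 20 of the 34 divergent genes (58.8%, interval 42.2% to 73.6%) the −1 dyad was at the same time the +1 dyad of a transcript on the other strand, so that the same NDR lay between both +1 dyads, against 46.6% of other ORFs with a divergent promoter, a share inside that interval. The partners include MAP2 (methionine aminopeptidase) at MRP21, RPB7 (an RNA polymerase II subunit) at MRP20, CDC10 (a septin) at MRPL32, LSM3 (a splicing factor subunit) at MRPL4 and GCV2 (a mitochondrial glycine decarboxylase subunit) at MRPS17. A single tandem gene, MRPS5, shared its −1 dyad, with a non-coding transcript (CUT458).

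The partners did not share the 3′ element to the same extent. Of the 34 divergent partners, 10 had a Puf3 element (29.4%, interval 16.8% to 46.2%), among them COA3 and CMC1, which assemble cytochrome oxidase, at MRPL8 and MRPL31, and MSS1, which modifies mitochondrial tRNAs, at MRPL3. The histone demethylase gene JHD1 at RSM18, the chromatin remodeler subunit gene SNF12 at MRPL50 and RRP12, a ribosome biogenesis factor gene, at MRPS16, whose products are not known as mitochondrial proteins, carried it as well, as did CMI8, AIM25, AIM36 and GCV2. Over all 6002 annotated protein-coding genes the share was 16.2%, just below the interval of the partners, which includes the 17% of other ORFs. The mitoribosomal share of 96.4% lies above that interval. These partner genes were named after their values were seen.

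Reb1 and Abf1 motifs were searched on both strands within 300 bp upstream of the +1 dyad, as TTACCC for Reb1 and as TCA, any 6 bases and ACG for Abf1. Examples whose motifs lay near the median distance from the +1 dyad are shown on the coding strand of each gene, with the fixed letters of the motif in capitals. GGGTAA is the Reb1 motif, and CGT, 6 bases and TGA the Abf1 motif, on the other strand.

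MRPL22 Reb1, chrXIV:304741-304764, minus strand: ctgtgggcgGGGTAActaagcctt
MRPL9 Reb1, chrVII:936977-937000, minus strand: tttgttttcGGGTAAtcccttgtc
MRP13 Reb1, chrVII:648178-648201, minus strand: caccatgcaGGGTAAtagaaaatg
MRPL10 Reb1, chrXIV:104162-104185, minus strand: atagttttcTTACCCggctgaaac
MRPL23 Reb1, chrXV:611856-611879, plus strand: tgttgattgTTACCCgcatggagc
MRPL4 Abf1, chrXII:1014326-1014355, plus strand: cgcgacctaTCAcacagcACGgatagccaa
MRPL27 Abf1, chrII:768092-768121, plus strand: ttattattaTCAcgtttcACGgattatttt
MRPL8 Abf1, chrX:316589-316618, minus strand: ctttgtctgTCAccgcgtACGaggcgggaa
MRPS18 Abf1, chrXIV:58012-58041, plus strand: tgtttgtttCGTacttcgTGActgtttggc
MRP1 Abf1, chrIV:1168969-1168998, plus strand: ctgaagttcCGTggaaagTGAgatttatat

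A Reb1 motif was found in 14 of 55 mitoribosomal windows (25.5%, interval 15.8% to 38.3%), against 19% of other ORFs. An Abf1 motif was found in 15 (27.3%, interval 17.3% to 40.2%), against 18.2%. The share of other ORFs lies inside each of these intervals. With either motif there were 28 genes (50.9%, interval 38.1% to 63.6%), against 34.7% of other ORFs, a share below the interval. Only MRP51 (bS1m) held both motifs. The combined share was not a planned measure, and no alternatives to it were computed. Either motif was found in 44.4% (18.9% to 73.3%) of the genes of other names and 30% (16.7% to 47.9%) of the other mitochondrial translation genes. In respiratory chain and ATP synthase genes the share was 42.3% (25.5% to 61.1%). These intervals overlap the mitoribosomal one, and that of cytosolic ribosomal protein genes (24.6%, 17.9% to 32.8%) does not. In divergent promoters the share was 58.8% (42.2% to 73.6%) in mitoribosomal genes, against 35.5% of other ORFs. In tandem promoters it was 38.1% (20.8% to 59.1%), against 34%, a share inside the interval. Of the 21 universal genes 15 had a motif (71.4%, interval 50% to 86.2%), of the 12 bacterial 4 (33.3%, interval 13.8% to 60.9%) and of the 20 mitochondrial 8 (40%, interval 21.9% to 61.3%). A match is a description of the letters, and binding was not measured in this library.

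In mitoribosomal genes as in other ORFs, most motifs stood in 1 place. In the 14 genes with a Reb1 motif, the centre of the motif nearest to the +1 dyad was a median of 146.5 bp (137.5 to 167.5) upstream of it, against 153.5 bp in other ORFs. For MRPL22 it was 144.5 bp, for MRPL9 143.5 bp, for MRP13 138.5 bp, for MRPL10 141.5 bp and for MRPL23 150.5 bp. MRPL7 (148.5 bp), RSM18 (137.5 bp) and MRPS17 (134.5 bp, and a second motif at 150.5 bp) were close to these. In the 15 genes with an Abf1 motif the median was 142.5 bp (133.5 to 158.5), against 153.5 bp in other ORFs. MRPL4 had it at 143.5 bp, MRPL27 at 138.5 bp, MRPL8 at 147.5 bp, MRPS18 at 137.5 bp and MRP1 at 140.5 bp, and MRPS16 (142.5 bp) and MRP51 (149.5 bp) were alike.

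Counting motifs and not genes, 13 of 16 Reb1 motifs and 13 of 16 Abf1 motifs (81.2% each) of mitoribosomal genes were centred 120 to 180 bp upstream of the +1 dyad, against 60.7% of Reb1 and 58% of Abf1 motifs in other ORFs. This window was set after the positions were seen. By gene, 24 of 55 mitoribosomal genes had a Reb1 or Abf1 motif in it (43.6%, interval 31.4% to 56.7%), against 22.9% of other ORFs. It was present in 13 of 21 universal (61.9%, interval 40.9% to 79.2%), 4 of 12 bacterial (33.3%, interval 13.8% to 60.9%) and 7 of 20 mitochondrial members (35%, interval 18.1% to 56.7%), with overlapping intervals. The share was 33.3% (12.1% to 64.6%) in the genes of other names and 16.7% (7.34% to 33.6%) in the other mitochondrial translation genes. In respiratory chain and ATP synthase genes it was 26.9% (13.7% to 46.1%). These intervals overlap that of all 55 mitoribosomal genes, and that of cytosolic ribosomal protein genes (11.9%, 7.35% to 18.7%) does not. In divergent promoters such a motif stood in 52.9% (36.7% to 68.5%) of mitoribosomal genes, against 23.2% of other ORFs, a share below the interval. In tandem promoters it stood in 28.6% (13.8% to 50%), against 23%, a share inside the interval. The divergent and tandem mitoribosomal intervals overlap. Genes outside the window were MRPS5, whose Abf1 motif at 44.5 bp lies inside the +1 nucleosome, MRPL51 with one at 79.5 bp, and MRPS8 and MRP8 with Reb1 motifs at 297.5 and 193.5 bp.

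The 24 mitoribosomal genes with a motif in that window had a median NDR of 279.5 bp (257 to 287), against 263.5 bp (252 to 278) in the other mitoribosomal genes. In other ORFs the medians with and without such a motif were 280 bp (278 to 282) and 259 bp (257 to 260). The −1 dyad lay 222.5 bp (209 to 234) upstream of the TSS in mitoribosomal genes with and 201.5 bp (191 to 226) in those without the motif, against 232 and 200 bp in other ORFs with and without it. MRPL28, MRPL8 and MRP49 have 3 of the shortest NDRs although each holds an Abf1 motif in the window, and in MRPL28 the motif lay past its −1 dyad. In MRP49 (124.5 bp in an NDR of 132 bp) and MRPL8 (147.5 of 167 bp) the motif centre was within 73 bp of the −1 dyad. It thus lay inside the DNA of the −1 nucleosome.

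**Figure D4:**
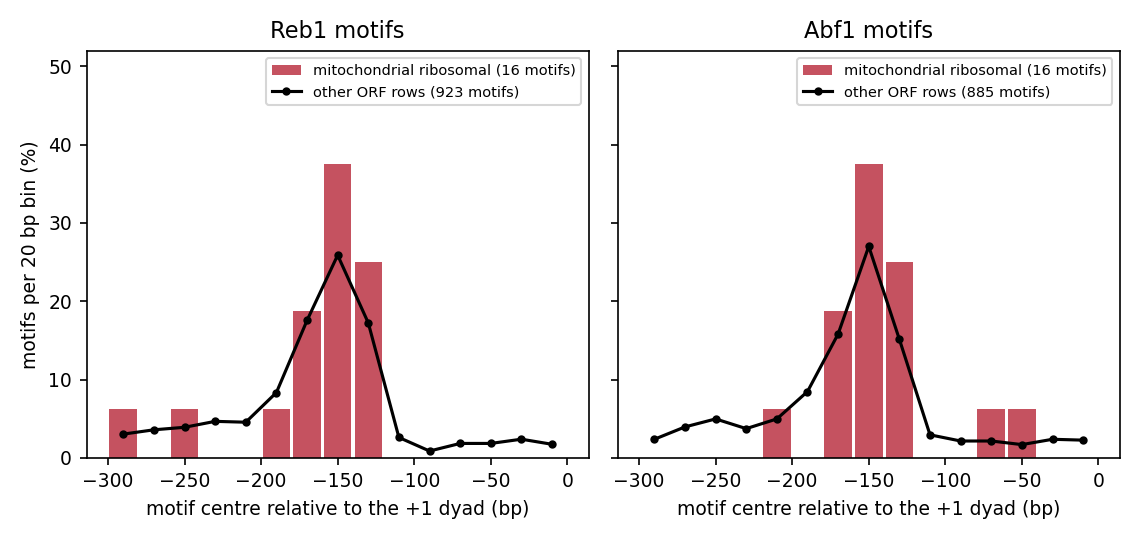
Share of Reb1 (left) and Abf1 (right) motifs (y axis, percent) in each 20 bp bin upstream of the +1 dyad (x axis, bp) for mitoribosomal genes (bars, 16 motifs each) and other ORF rows (line, 923 and 885 motifs). Both peak 140 to 160 bp upstream of the +1 dyad, with 37.5% of the mitoribosomal motifs of each kind in that bin.

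The other promoter motifs went the other way or showed little difference. AATTTT is known as an element of promoters of genes for rapid growth, such as those for ribosomal RNA processing, and in Candida albicans also of mitochondrial ribosomal protein genes. It was found in 18 of 55 mitoribosomal windows (32.7%, interval 21.8% to 45.9%), against 56% of other ORFs and 57.1% (48.4% to 65.4%) of cytosolic ribosomal protein genes. It stood in 20 of 30 other mitochondrial translation genes (66.7%, interval 48.8% to 80.8%), and in 9 of 26 respiratory chain and ATP synthase genes (34.6%, interval 19.4% to 53.8%), a share close to the mitoribosomal one. In the 9 mitochondrial ribosomal protein genes of other names it was 44.4% (18.9% to 73.3%), an interval that includes the share of other ORFs. The median A+T content of the window was 64.33% in both mitoribosomal genes and other ORFs, and among other ORFs within the mitoribosomal quartiles of A+T the share was 57.6%. Within the mitoribosomal genes the element was in 13 of 32 large subunit genes (40.6%, interval 25.5% to 57.7%) and 4 of 21 small subunit genes (19%, interval 7.67% to 40%). The large subunit interval includes the 56% of other ORFs, and that of the small subunit does not.

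CCAAT is the core bound by the Hap complex, the activator of respiratory genes in yeast. It was present in 21 of 55 mitoribosomal windows (38.2%, interval 26.5% to 51.4%), against 42.2% of other ORFs. In the respiratory chain and ATP synthase genes it was present in 25 of 26 (96.2%, interval 81.1% to 99.3%), and the 2 intervals do not overlap. A poly(dA:dT) tract of 6 or more stood in 35 of 55 mitoribosomal windows (63.6%, interval 50.4% to 75.1%), against 73.2% of other ORFs, a share inside the interval.

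**Figure D5:**
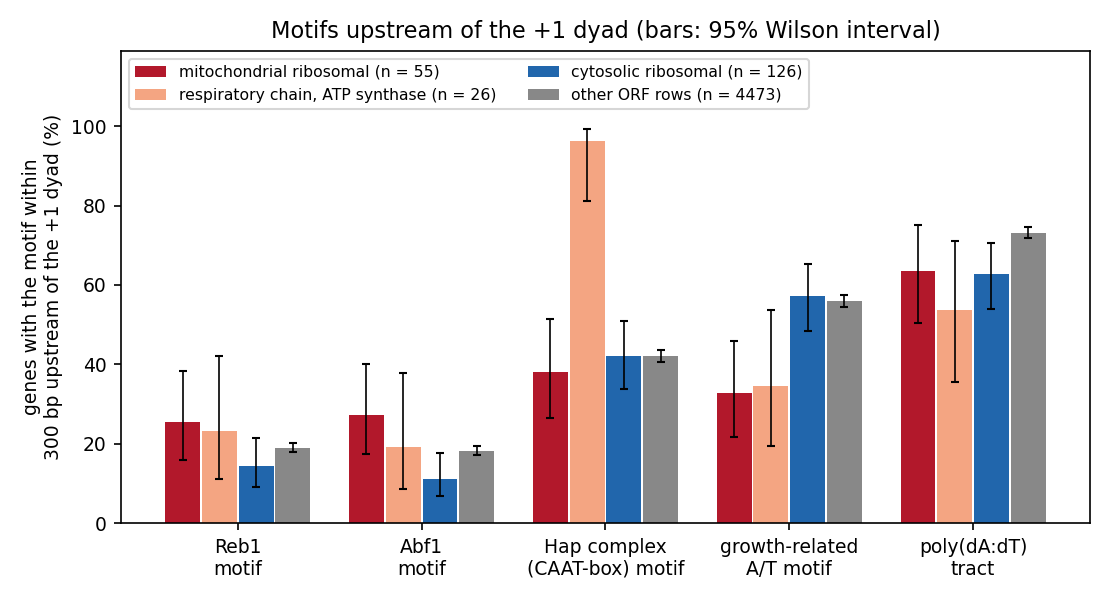
Share of genes (y axis, percent; bars, 95% Wilson interval) with each motif within 300 bp upstream of the +1 dyad, in mitoribosomal genes, 2 other lists and other ORF rows. The mitoribosomal bar is at 32.7% for the growth-related AATTTT motif, against 56% in other ORF rows, and at 38.2% for the Hap complex motif, against 96.2% in respiratory chain and ATP synthase genes.

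The base composition around the +1 dyad followed the same course in both groups. In 20 bp bins the mean A+T content of mitoribosomal genes was 66.09% ± 10.79 (SD over 55 genes) at 180 to 160 bp upstream of the dyad, 61.18% ± 12.13 at 160 to 140 bp, 61% ± 11.28 at 140 to 120 bp and 67.18% ± 11.74 at 120 to 100 bp, against 64.05%, 62.82%, 62.72% and 66.96% in other ORFs. Of the 16 motifs of each kind, 3, 6, 4 and 0 were centred in these bins, for Reb1 and for Abf1 alike. Downstream of the dyad it was 56.45% ± 10.39 at 40 to 60 bp, against 58.71% in other ORFs.

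The deposited lists of BamHI, EcoRV and KpnI sites place a site inside the NDR of 11 of 54 mitoribosomal genes (20.4%, interval 11.8% to 32.9%), against 10.3% of other ORFs with an NDR, a share below the interval. A site was found in 0 of the 9 mitochondrial ribosomal protein genes of other names (upper bound 29.9%) and in 0 of 30 other mitochondrial translation genes (upper bound 11.4%). The share was 11.5% (4% to 29%) in respiratory chain and ATP synthase genes and 4.76% (2.2% to 10%) in cytosolic ribosomal protein genes. The mitoribosomal share with the 9 genes of other names counted in was not computed. The sites are predicted cuts of the genome and not measurements, and the study used cut DNA ends as barriers. EcoRV cut at MRP1, RSM26, MRP49, MRP8, MRPL31, MRP7, MRPL23 and MRP51, KpnI at MRPL36 and MRPL10, and BamHI at MRPL44. The NDR is measured from dyad to dyad, so 73 bp at each end is DNA of a flanking nucleosome. Most of these sites lay there, and no such count was made in other ORFs. The sites of MRPL36 (37 bp), MRP8 (38 bp), MRPL31 (25 bp) and MRPL23 (66 bp) upstream of the +1 dyad were within 73 bp of it and so inside the DNA of the +1 nucleosome. Those of MRP1 (271 bp in an NDR of 282 bp), MRP49 (88 of 132 bp), MRPL10 (228 of 284 bp) and MRP51 (265 of 306 bp) were within 73 bp of the −1 dyad. The remaining 3, in RSM26 (226 of 431 bp), MRPL44 (79 of 260 bp) and MRP7 (154 of 256 bp), lay between the 2 nucleosomes.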

How the data were processed

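Per the study's methods, the authors mapped MNase-seq reads of 1 in vivo library (BY4741) to SacCer3 with Bowtie, shifted read ends by 73 bp to the dyad, smoothed the dyad density and called peaks with a minimum distance, taking the dyad nearest to and downstream of the TSS as +1 and the next upstream one as −1. The deposited table holds these coordinates, the NDR length and transcript ends, in bp, with no count, signal or error. Values of a second +1 column, of unstated origin, served as an alternative. The 5 further numeric columns were not used.

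Distances were computed in the direction of transcription. Start and stop codons, neighbours, systematic protein names and sequence came from RefSeq R64, the same build as SacCer3: all nuclear sites in the deposited cut-site lists fell on their recognition sequence. By locus name 55 of 55 mitoribosomal and 4356 of 4481 other ORF rows matched. Shares have Wilson and medians binomial order-statistic 95% intervals. The scripts (Python 3.11.15) were tested on simulated sequence.

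The members and gene lists were chosen with earlier results of these data known. Genes named one by one were those with the 5 longest and 5 shortest NDRs, the 4 largest and 4 smallest +1 distances, no NDR length, a shared promoter, a Reb1 or Abf1 motif near the median distance (up to 8 each) or a restriction site in the NDR. Others were named after their values were seen. No test was made over genes. The reconstituted libraries of the series were not used here.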

Additional observations from a re-analysis of the deposited data

How the results depend on the processing

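No paired analysis was possible because the positions come from 1 library. For the 12 measures, 70 alternatives were computed, 9 of them added after the data were seen, and those that changed only the rows compared with could not move the mitoribosomal value. None of the differences whose interval excluded the other ORFs changed direction. In 8 alternatives the mitoribosomal value left the interval of the reported one, where other letters, another strand or region, or fewer genes were searched. With TTACCCG the Reb1 share was 12.7%, against 10% of other ORFs. The share of AAATTTT was 12.7%, against 27.3%. Tracts of 5 or more stood in 89.1%, against 93.6%, and tracts of 8 or more in 25.5%, against 35.5%. The Puf3 element TGTAAATA alone stood in 54.5%, against 4.66%. On the opposite strand the Puf3 share was 23.6%, against 16.7%, and before the start codon 10.9%, against 8.15%. Among the genes with a systematic ribosomal protein name it was 100%, against 17%. In 4 alternatives the small difference of a median distance turned sign. The +1 distance was 53 bp against 54 bp with the genes of other names, 53 against 54 bp in tandem promoters, and 55 against 56 bp beside other ORFs of the same range of transcript lengths. The −1 distance was 206.5 against 215 bp in tandem promoters. With the second +1 column the median NDR was 261 bp in both groups, and the +1 dyad was at or past the start codon in 49.1%, against 37.4%. With neighbours that do not overlap the gene the divergent share was 60.4%, against 52.5%. Nothing here measures how the dyads would differ in a second library.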

Other observations

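At the 3′ end, the last called dyad lay a median of 92 bp (69 to 111) upstream of the transcript end in the 55 mitoribosomal genes, against 108 bp in other ORFs, a value inside the interval. It was 106.5 bp (80 to 130) in large subunit genes and 64 bp (35 to 96) in small subunit genes, with overlapping intervals. RSM26 had its last dyad 1 bp from the transcript end and MRPL17 327 bp from it, and both were named after their values were seen.

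The 55 genes lie on 13 chromosomes, with 10 on chromosome IV, 8 on chromosome XI and 6 each on chromosomes II and XIV, and 30 are on the plus and 25 on the minus strand. In 3 genes the promoter class differs between the annotation and the rows of the dyad table, and in MRP4 and MRPL51 the upstream annotated gene overlaps the gene, with distances of −2 and −323 bp from the start codon. MRPL51 nevertheless shares its −1 dyad with the +1 dyad of YPR098C, farther upstream.

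CCAAT stood in 14 of the 24 mitoribosomal genes with a Reb1 or Abf1 motif 120 to 180 bp upstream of the +1 dyad (58.3%, interval 38.8% to 75.5%) and in 7 of the 31 without one (22.6%, interval 11.4% to 39.8%), against 43.8% and 41.7% of other ORFs with and without one. The 2 mitoribosomal intervals overlap, and this split was looked at after the values were seen.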
